A study of Rattus norvegicus with 16 samples.

Results

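Ccl7, Cxcl1 and Bdkrb1 encode 2 chemokines and a kinin receptor, and their RNA was measured at the implant–abdominal wall interface of rats. The members were given as a set of 3 gene symbols. They were found by their Ensembl identifiers among the 32552 genes of the count files. They were picked with their counts in these libraries known, so their levels and differences are described here, and no test of them is given.

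The bulk RNA-sequencing data held 16 libraries in 4 groups, with 4 libraries for each combination of adhesive or non-adhesive implant and day 3 or day 14 post-implantation. All came from abdominal wall of Sprague Dawley rats labelled female and 12 weeks old. Both implants carried the same polyurethane mock device and the same bonding layer. In the non-adhesive implant this layer had been left to swell in phosphate-buffered saline, which ended its bonding, and this implant was held on the tissue by sutures, so a difference between the implants cannot be told apart from one that sutures make. No source used here ties a library to a rat, so standard errors and p values measure the spread between libraries, which may come from fewer animals. The days follow the sample descriptions. Day 17 appears in the series text, and day 10 in the protocol for extraction.

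Chemokines are small secreted proteins that direct leukocytes along a gradient into tissue. Ccl7, also called MCP-3, is a CC chemokine that attracts monocytes through Ccr2 and related receptors, and Cxcl1 is a CXC chemokine that attracts neutrophils through Cxcr2. Bdkrb1 is the B1 receptor for kinins, peptides that widen vessels, make them leaky and cause pain. It is scarce in most healthy tissue and is induced by injury and inflammatory cytokines, whereas the related B2 receptor is made constitutively. Monocytes and neutrophils are early arrivals at an implant, which makes these genes natural readouts of the first days of a foreign body reaction.

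The count files place Ccl7 (ENSRNOG00000000239) on chromosome 10 from 69423086 to 69424979 on the plus strand. Cxcl1 (ENSRNOG00000002802) lies on chromosome 14 from 18743685 to 18745457 on the minus strand, and Bdkrb1 (ENSRNOG00000004488) on chromosome 6 from 129438158 to 129440574 on the plus strand. Their summed exon lengths are 850, 926 and 1312 bases. These coordinates are as the files give them. The labels and the paper's methods name different builds, so no build is given for them. None of the 3 genes shares an exon base with another gene of the files, so reads of an overlapping gene could not be counted in their place. Cxcl1 has similar relatives nearby, Cxcl2 among them, and how reads matching more than 1 gene were counted is not given in the sources used here.

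The bases just before the start of each gene are shown because chemokine genes are known to be switched on through short binding sites there. They come from RefSeq (build GRCr8), are read 5′ to 3′ along the gene's strand and end at the base before the gene's outermost RefSeq start, counted as position -1. Capitals mark every match, on either strand, to 4 motifs: the NF-kB motif, AP-1 (TGANTCA), C/EBP (TTNNGNAA) and the TATA box (TATAAA).
Ccl7, chr10:67513845-67514094, plus strand: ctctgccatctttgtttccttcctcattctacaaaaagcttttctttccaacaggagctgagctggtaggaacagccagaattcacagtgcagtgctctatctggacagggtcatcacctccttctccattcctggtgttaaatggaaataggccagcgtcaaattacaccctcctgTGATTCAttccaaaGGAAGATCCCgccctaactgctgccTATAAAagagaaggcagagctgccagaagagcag
Cxcl1, chr14:17479322-17479571, minus strand: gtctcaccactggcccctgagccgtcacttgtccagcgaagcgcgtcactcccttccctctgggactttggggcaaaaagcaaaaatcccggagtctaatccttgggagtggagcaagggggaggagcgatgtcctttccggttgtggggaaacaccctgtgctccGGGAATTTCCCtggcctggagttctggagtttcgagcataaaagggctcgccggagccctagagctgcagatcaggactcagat
Bdkrb1, chr6:130275436-130275630, plus strand: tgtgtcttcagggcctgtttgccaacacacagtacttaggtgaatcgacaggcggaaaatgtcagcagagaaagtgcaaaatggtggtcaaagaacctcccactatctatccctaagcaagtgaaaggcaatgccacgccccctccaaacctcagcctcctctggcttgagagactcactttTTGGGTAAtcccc

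In the 250 bases of Ccl7, an AP-1 match lay at -73 to -67, an NF-kB match at -59 to -50 and a TATA box at -34 to -29, with none overlapping another. In the 250 bases of Cxcl1 there were 2 NF-kB matches, at -84 to -75 and -83 to -74, which overlap in 1 run and are not separate sites. The 195 bases of Bdkrb1 held a C/EBP match at -13 to -6 and none of the other motifs. Among 27457 RefSeq promoters of 250 bases, 6.41% held the NF-kB motif, 6.36% AP-1 and 13.1% the TATA box. Over the first 195 bases of these stretches, 31.7% held C/EBP and 4.96% NF-kB. These shares leave out the bases nearest the start of each promoter's gene, whereas the Bdkrb1 bases end at its outermost start. A match describes letters and is no evidence that a factor bound there, and the absence of one says only that these letters are not in this window.

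Library totals were 18616084 to 24858976 counts on day 3 and 13852126 to 16801635 on day 14, so every day-14 library was shallower than every day-3 library. Day and any batch shared by the libraries of a day cannot be told apart. Markers of skeletal muscle fibres, fibroblasts, endothelium and leukocytes were present in every group, as abdominal wall would have, and no named marker was at 0 in all 4 libraries of a group. Non-adhesive replicate 4 of day 14 stood apart from its group. Its 7 fibroblast markers summed to 2503 CPM (counts divided by the library total in units of 1000000 counts, with TMM factors that make libraries comparable) against 15476 to 17390 in the other 3 libraries. Adhesive replicate 2 of day 14 had a fibroblast sum of 11764 CPM against 2028 to 4500 CPM in its group. Non-adhesive replicate 2 of day 3 had a fibroblast sum of 5202 CPM against 10454 to 14334 CPM, and a sum of leukocyte markers of 160 CPM against 297 to 418 CPM.

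Ccl7 was the most abundant of the 3 genes and was several-fold lower on day 14 than on day 3 at both implants. On day 3 its level in the adhesive libraries was 135, 269, 88.7 and 170 CPM in replicates 1 to 4, a mean of 165.7 ± 76.4 CPM (SD, n = 4). In the day-3 non-adhesive libraries it was 180, 24.7, 232 and 58.9 CPM, a mean of 123.9 ± 98.2 CPM (SD, n = 4). The non-adhesive libraries thus fell into a high and a low pair, and the adhesive libraries lay inside their range except for replicate 2, the highest of all.

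On day 14 Ccl7 measured 14.4, 54.3, 10.6 and 13.6 CPM in the adhesive libraries, a mean of 23.2 ± 20.8 CPM (SD, n = 4). The non-adhesive libraries measured 18.0, 22.8, 15.0 and 5.30 CPM, a mean of 15.3 ± 7.38 CPM (SD, n = 4). Adhesive replicate 2 alone lay above all non-adhesive libraries, and the other 3 adhesive libraries lay within the non-adhesive range. The mean order was adhesive day 3, non-adhesive day 3, adhesive day 14 and non-adhesive day 14, and each neighbouring pair in this order overlapped.

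Cxcl1 had a much lower level and a similar course. Its day-3 adhesive libraries measured 7.35, 13.6, 4.29 and 6.43 CPM, a mean of 7.93 ± 4.02 CPM (SD, n = 4). The day-3 non-adhesive libraries measured 12.5, 1.34, 9.82 and 3.02 CPM, a mean of 6.68 ± 5.36 CPM (SD, n = 4). As for Ccl7, adhesive replicate 2 was the highest library, and non-adhesive replicates 1 and 3 were high where replicates 2 and 4 were low.

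On day 14 Cxcl1 measured 0.757, 1.67, 1.31 and 1.65 CPM in the adhesive libraries, a mean of 1.34 ± 0.425 CPM (SD, n = 4), from 7 to 22 counts per library. The non-adhesive libraries measured 2.43, 6.62, 1.60 and 1.04 CPM, a mean of 2.92 ± 2.53 CPM (SD, n = 4). Non-adhesive replicate 2 was far above its group, and the implants overlapped. The non-adhesive mean stood between the day-3 means and the adhesive day-14 mean, and neighbours in that order overlapped.

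Bdkrb1 was the scarcest of the 3 genes, and its lowest level was at the adhesive implant on day 14. On day 3 the adhesive libraries measured 2.92, 6.11, 1.21 and 3.20 CPM, a mean of 3.36 ± 2.04 CPM (SD, n = 4). The non-adhesive libraries of that day measured 3.69, 1.67, 2.59 and 1.88 CPM, a mean of 2.46 ± 0.909 CPM (SD, n = 4), within the adhesive range.

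On day 14 the adhesive libraries held 0, 4, 4 and 2 Bdkrb1 reads, or 0, 0.303, 0.349 and 0.157 CPM, a mean of 0.202 ± 0.158 CPM (SD, n = 4). The non-adhesive libraries held 27, 17, 24 and 2 reads, or 1.56, 1.16, 1.47 and 0.208 CPM, a mean of 1.10 ± 0.620 CPM (SD, n = 4). Summed over a group and with no TMM scaling, 10 reads at the adhesive implant gave 0.170 CPM (95% exact Poisson interval 0.0815 to 0.313). The 70 reads at the non-adhesive implant gave 1.10 CPM (95% interval 0.858 to 1.39). These intervals cover counting error only. Non-adhesive replicate 4 lay inside the adhesive range and was the only one of its group to do so.

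**Figure D1:**
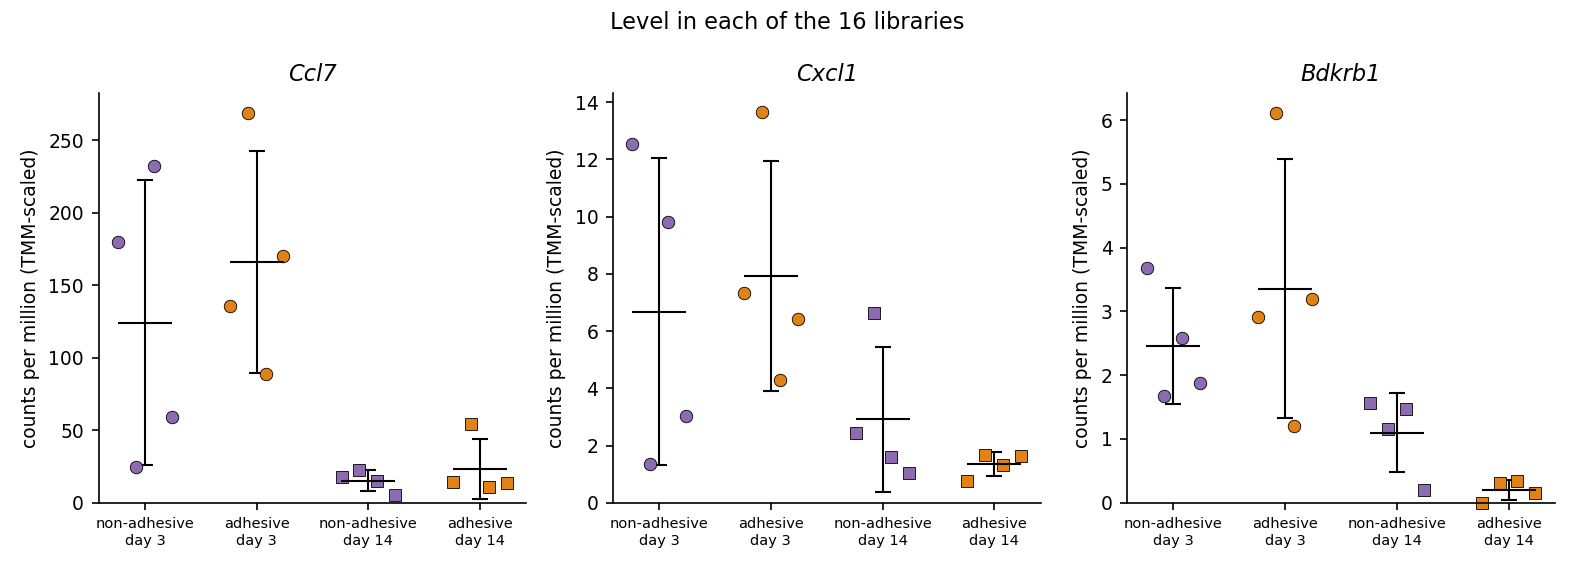
Levels of Ccl7, Cxcl1 and Bdkrb1 in CPM (linear axis from 0) for each library, by implant and day. Points are libraries in the order of replicates 1 to 4, horizontal lines are group means and bars are SD (n = 4); all 4 day-14 adhesive libraries lie below all 4 day-3 adhesive libraries for each gene, and Bdkrb1 is at 0 to 0.349 CPM in the day-14 adhesive libraries.

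Levels of different genes were compared per length, as TPM, which divides counts by gene length before scaling each library. Ccl7 averaged 399 TPM at the adhesive and 308 TPM at the non-adhesive implant on day 3, which placed it 334th of 20789 and 454th of 21043 genes detected in those groups. On day 14 it averaged 35.6 and 27.5 TPM and ranked 2546th and 3531st. Cxcl1 averaged 17.3 and 15.5 TPM on day 3, and 1.83 and 4.80 TPM on day 14. Bdkrb1 averaged 5.23 and 3.88 TPM on day 3, and 0.200 and 1.32 TPM on day 14. Ccl7 was thus the highest of the 3 in every group, Cxcl1 the next and Bdkrb1 the lowest.

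The proportion between the chemokines was steadier on day 3 than their levels. Ccl7 was 15.6 to 28.8 times as abundant as Cxcl1 per length in the 8 libraries of day 3, with a median of 21.4, although Ccl7 itself ranged from 46.0 to 672 TPM. On day 14 the ratio was 8.86 to 35.5 in the adhesive and 3.75 to 10.3 in the non-adhesive libraries. The non-adhesive ratios of day 14 all lay below those of day 3, since Ccl7 differed more between days than Cxcl1 there.

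Between days, the adhesive libraries of day 14 lay below all adhesive libraries of day 3 for each of the 3 genes. Over all 14601 genes tested, 12.9% showed this arrangement. Mean Ccl7 was 7.14-fold lower on day 14, Cxcl1 5.89-fold and Bdkrb1 16.6-fold. Without adhesive replicate 2 of day 14, the highest of its group, the Ccl7 value was 12.9-fold. The fitted log2 fold changes were -2.83 (SE 0.71) for Ccl7, -2.54 (SE 0.70) for Cxcl1 and -3.95 (SE 0.69) for Bdkrb1. In order from the most negative, Bdkrb1 stood 18th, Ccl7 78th and Cxcl1 107th of the 14601 genes. These places are a description, since the genes were picked with the values known, and the outcome of a test is given for none of them. Over all genes, 3.73% were called in the lower direction by the study's limits (adjusted p no higher than 0.05, log2 fold change 1 or more in size).

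At the non-adhesive implant, the day-14 libraries lay below all day-3 libraries for Ccl7 and Bdkrb1 and overlapped for Cxcl1, against 8.92% of genes without overlap in that direction. Mean levels were 8.11-fold lower on day 14 for Ccl7, 2.29-fold for Cxcl1 and 2.23-fold for Bdkrb1. The log2 fold changes were -3.01 (SE 0.71), -1.18 (SE 0.65) and -1.12 (SE 0.55). Ccl7 stood 58th from the most negative gene, Cxcl1 621st and Bdkrb1 682nd. Without non-adhesive replicate 2 of day 14 the mean of Cxcl1 was 3.95-fold lower. Over all genes 3.75% were called in the lower direction by the same limits. The adhesive and non-adhesive values of Ccl7 were close, and those of Cxcl1 and Bdkrb1 were larger in size at the adhesive implant.

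Between implants on day 3 the 3 genes were slightly higher on average at the adhesive implant. The log2 fold changes were 0.42 (SE 0.64) for Ccl7, 0.23 (SE 0.65) for Cxcl1 and 0.45 (SE 0.48) for Bdkrb1, all smaller than their standard errors. The groups overlapped for each gene, while 2.67% of 14223 genes lay wholly lower and 1.4% wholly higher at the adhesive implant. Over all genes 0% were called on that day. Without adhesive replicate 2, the highest library for each of them, the values became 0.08, -0.17 and -0.01. Without non-adhesive replicate 2, the lowest library for Ccl7 and Cxcl1, they became 0.08 for Ccl7 and -0.11 for Cxcl1.

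On day 14 the values of the 3 genes between implants did not share a sign. Adhesive against non-adhesive, Ccl7 had a log2 fold change of 0.60 (SE 0.60), Cxcl1 of -1.11 (SE 0.58) and Bdkrb1 of -2.37 (SE 0.73). The value of Bdkrb1 is from a fit with no filter on low counts, since its reads on day 14 did not pass the filter of that day. Over all 13557 genes tested 0.266% were called on that day. All 3 genes overlapped between implants, while 4.11% of genes lay wholly lower and 4.54% wholly higher at the adhesive implant. Leaving out adhesive replicate 2 turned Ccl7 to -0.25, with means of 12.9 against 15.3 CPM. Leaving out non-adhesive replicate 2 brought Cxcl1 to -0.33, with means of 1.34 against 1.69 CPM. Each of these differences rested on 1 library, and adhesive replicate 2 is also the library with the high fibroblast sum in its group. The part of tissue makeup in them was not tested. Leaving out non-adhesive replicate 4 ended the overlap for Bdkrb1, with means of 0.202 against 1.40 CPM and a log2 fold change of -2.69. In that fit Bdkrb1 passed the filter only through the remaining non-adhesive libraries, where it was high.

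The difference between the implants changed between days by a log2 value of 0.18 (SE 0.94) for Ccl7, -1.35 (SE 0.93) for Cxcl1 and -2.84 (SE 0.89) for Bdkrb1. No test of these values is given, and that of Bdkrb1 rests on 10 summed reads in the day-14 adhesive libraries. Bdkrb1 stood 51st from the most negative of 14601 genes, which is a description. Over all genes 0.00685% were called for this difference.

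**Figure D2:**
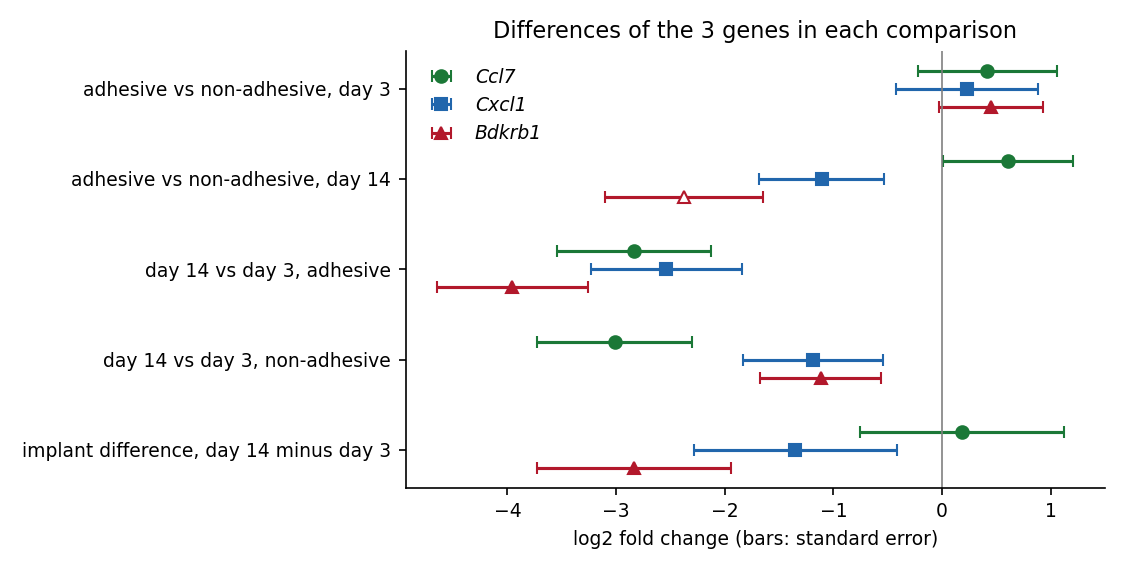
Log2 fold changes of the 3 genes in 5 comparisons, with bars of 1 standard error. The open triangle is the Bdkrb1 value of -2.37 from the fit with no filter on low counts; between days all values lie below 0, between implants on day 3 all lie within 1 standard error of 0, and on day 14 Ccl7 lies above 0 and the other 2 genes below.

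Libraries that were high in one gene tended to be high in the others on day 3. Over the 8 libraries of that day, on log2 CPM, Ccl7 and Cxcl1 had a Pearson r of 0.97 and a Spearman rho of 0.95. Without the 2 libraries farthest from the median, both non-adhesive, r was 0.87. Ccl7 and Bdkrb1 had an r of 0.73 and a rho of 0.79, and Cxcl1 and Bdkrb1 an r of 0.77 and a rho of 0.83. On day 14 the values were lower, with r of 0.41 and rho of 0.74 for Ccl7 and Cxcl1, r of 0.22 and rho of 0.43 for Ccl7 and Bdkrb1, and r of 0.70 and rho of 0.62 for Cxcl1 and Bdkrb1. Adhesive replicate 2, with 54.3 CPM of Ccl7 but 1.67 CPM of Cxcl1, left the common line, and without it and non-adhesive replicate 4 the r of Ccl7 and Cxcl1 was 0.80. These are descriptions over 8 libraries of 2 groups, and genes of 1 library share its depth and its tissue makeup.

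**Figure D3:**
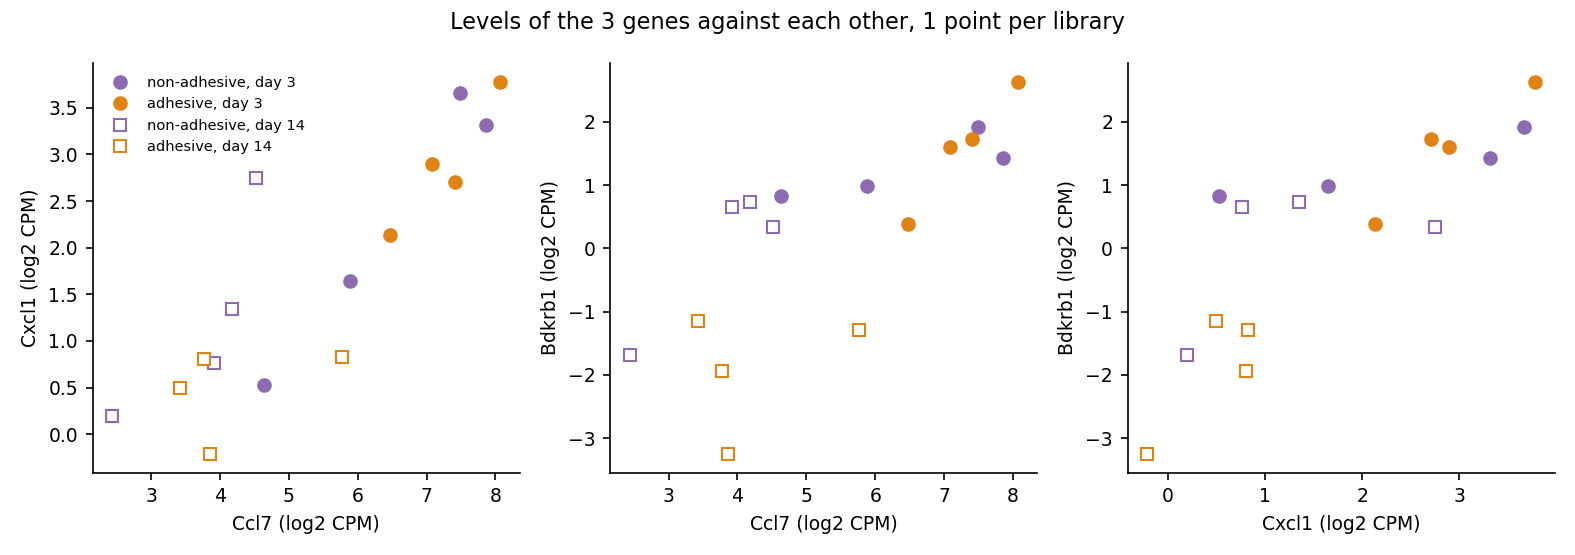
Log2 CPM of each pair of the 3 genes, with 1 point per library, filled for day 3 and open for day 14. Ccl7 and Cxcl1 line up on day 3 (r = 0.97), and the day-14 adhesive libraries sit lowest for Bdkrb1 together with 1 non-adhesive library.

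Marker lists of other cell types moved with some of these values. A lower level in bulk tissue can come from fewer cells of a type or from less RNA per cell, which cannot be told apart here. All 6 named leukocyte markers of 6 listed summed to 294 to 522 CPM at the adhesive implant on day 3 and 175 to 377 CPM on day 14. Non-adhesive sums were 160 to 418 and 122 to 522 CPM. The 6 named macrophage and monocyte markers of 12 listed summed to 339 to 775 and 239 to 533 CPM at the adhesive implant, and to 321 to 600 and 117 to 585 CPM at the non-adhesive implant. Only 2 of 8 neutrophil markers have a symbol here, and they summed to 43.97 to 94.99 CPM on day 3 and 62.7 to 84.1 CPM on day 14 at the adhesive implant. At the non-adhesive implant the neutrophil sums were 41.4 to 89.2 and 43.3 to 113 CPM. The ranges of these lists overlap between days. Those of Ccl7 and Bdkrb1 do not overlap at either implant, and those of Cxcl1 overlap at the non-adhesive implant only. Other lists also moved with the day at the adhesive implant. The 5 named endothelial markers of 7 listed, Selp among them, summed to 85.2 to 100.2 CPM on day 3 and 56.0 to 84.0 CPM on day 14, with no overlap. Not all of them moved alike, as 4 had a negative log2 fold change and 1 a positive one. Selp measured 22.6 to 37.5 and 5.25 to 13.7 CPM, with no overlap. Flt1 measured 29.6 to 36.1 and 32.3 to 41.1 CPM and Erg 12.9 to 19.4 and 12.4 to 15.8 CPM, both with overlap. The 4 named B and plasma cell markers of 6 listed summed to 4.24 to 11.9 and 12.1 to 24.9 CPM, higher on day 14 with no overlap. This list was split. Jchain and Fcmr had positive log2 fold changes of 2.37 and 1.77, and Fcrla and Tnfrsf13b negative ones of -0.52 and -0.63. At the non-adhesive implant both lists overlapped between days, at 40.6 to 133 and 65.2 to 106 CPM for endothelium and 5.41 to 34.5 and 6.02 to 53.0 CPM for B and plasma cells. The fibroblast sums overlapped between days at both implants.

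The skeletal muscle fibre list had higher medians on day 14, with no overlap between days at the adhesive implant and a slight one at the non-adhesive implant. Its 6 named markers of 9 listed summed to 5018 to 13299 CPM on day 3 and 17512 to 28364 CPM on day 14 at the adhesive implant, and to 4198 to 11012 and 10815 to 27703 CPM at the non-adhesive implant. The day-14 library with the highest non-adhesive sum, replicate 4, is the one with 2 Bdkrb1 reads, the lowest Ccl7 and the lowest Cxcl1 of its group. On log2 values over the 8 libraries of day 14, the muscle sum had an r of -0.94 with Bdkrb1, -0.69 with Cxcl1 and -0.45 with Ccl7. On day 3 these were -0.47, -0.51 and -0.51. The fibroblast sum had an r with Bdkrb1 of 0.90 on day 14 and 0.11 on day 3. Each r spans both implants and is a description. The part of muscle, fibroblast, leukocyte, endothelial or B cell content in the differences between days, and in the Bdkrb1 difference between implants on day 14, was not tested.

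Genes of the same pathways were counted over all genes tested, from lists of chemokines, chemokine receptors, the kinin system, interleukin-1 and inducible inflammatory genes, and leukocyte adhesion at vessels. Only genes with a symbol in the sources used here could be counted, 30 in all. No listed CC chemokine of 19 has a symbol, so Ccl7 has no named relative to set beside it. Between days at the adhesive implant, 4 of 29 tested list genes fell and 0 rose at an adjusted p of 0.05 or less and any fold change (edgeR quasi-likelihood test), and 23 of 29 had a negative value. Among all genes 7.46% fell and 7.43% rose by this rule. For the non-adhesive implant 2 of 29 fell and 0 rose, against 8.87% and 8.67% of all genes, and 18 of 29 had a negative value. The median log2 fold change of the list genes was -0.57 at the adhesive and -0.18 at the non-adhesive implant, beside -0.01 and 0.04 over all genes. Between implants no list gene passed, beside 0% of all genes on day 3 and 0.111% lower and 0.162% higher on day 14. At an unadjusted p under 0.05 the counts over all genes were 1022 on day 3 and 2149 on day 14, and DESeq2 called 69 and 474 genes with the fold limit above. In the difference of implant effects no list gene passed either.

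Among ligands, 3 of 15 listed CXC, C and CX3C chemokines have a symbol. Cxcl6, a neutrophil-attracting chemokine, fell at the non-adhesive implant from 6.88 ± 4.41 to 1.15 ± 1.40 CPM (SD, n = 4; log2 fold change -2.54, SE 0.82, edgeR adjusted p = 0.047). At the adhesive implant it measured 2.40 ± 1.83 and 0.497 ± 0.457 CPM on days 3 and 14 (SD, n = 4; log2 fold change -2.20, edgeR adjusted p = 0.11). Cxcl2, the neighbour and close relative of Cxcl1, passed at neither implant. It measured 2.72 ± 1.59 and 4.40 ± 5.33 CPM at the adhesive implant on days 3 and 14 (SD, n = 4; log2 fold change 0.71, SE 0.85, edgeR adjusted p = 0.59). Its day-14 mean rested on adhesive replicate 2, at 12.4 CPM against 1.08 to 2.27 CPM, and without that library the mean was 1.74 CPM and the log2 fold change -0.62. Non-adhesive values of Cxcl2 were 1.45 ± 1.22 and 1.36 ± 1.42 CPM (SD, n = 4; log2 fold change -0.07, SE 0.89, edgeR adjusted p = 0.97). None of the 3 named receptors of 24 listed passed. These were Cxcr3, Cxcr4 and Cmklr1, none of which is the main receptor of Ccl7 or Cxcl1. The kinin list had 1 named gene of 14, Xpnpep2, a peptidase that cleaves bradykinin, with log2 fold changes of 0.12 and 0.00 at the adhesive and non-adhesive implants.

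Of 17 named genes among 27 listed interleukin-1 and inducible inflammatory genes, 16 were tested between days. At the adhesive implant 2 fell and 0 rose, of which 1 is described. Atf3, a stress-induced transcription factor, fell from 86.8 ± 20.5 to 35.6 ± 11.9 CPM (SD, n = 4; log2 fold change -1.28, SE 0.33, edgeR adjusted p = 0.020). Non-adhesive libraries gave 1 that fell, Map3k14, a kinase of the non-canonical NF-kB pathway, from 24.8 ± 5.80 to 15.0 ± 2.05 CPM (SD, n = 4; log2 fold change -0.72, SE 0.16, edgeR adjusted p = 0.0092). Il1b, the cytokine interleukin-1 beta, had values of -0.70 and 0.04 at the adhesive and non-adhesive implants and passed at neither. Without adhesive replicate 2 of day 14, at 20.7 CPM against 1.41 to 3.37 CPM, the adhesive value of Il1b was -2.11.

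Of 6 named genes among 11 listed for leukocyte adhesion at vessels, 2 fell at the adhesive implant, of which 1 is described, and none passed at the non-adhesive implant. Selp, the P-selectin of platelets and activated endothelium, fell from 28.5 ± 6.46 to 7.68 ± 4.04 CPM (SD, n = 4; log2 fold change -1.88, SE 0.56, edgeR adjusted p = 0.036). At the non-adhesive implant Selp had a log2 fold change of -0.93 (edgeR adjusted p = 0.25). In the test of the difference between implant effects no list gene passed, so that a different change at the implants was not shown for these genes. Of these 4 named genes, 3 lost the call when some single library was left out. With each of the 16 libraries left out in turn, Map3k14 passed in 16 fits, Atf3 in 12, Selp in 10 and Cxcl6 in 6. The highest adjusted p (edgeR) came without adhesive replicate 2 of day 3 for Atf3 (0.063), without adhesive replicate 4 of day 14 for Selp (0.0999) and without non-adhesive replicate 3 of day 14 for Cxcl6 (0.11).

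**Figure D4:**
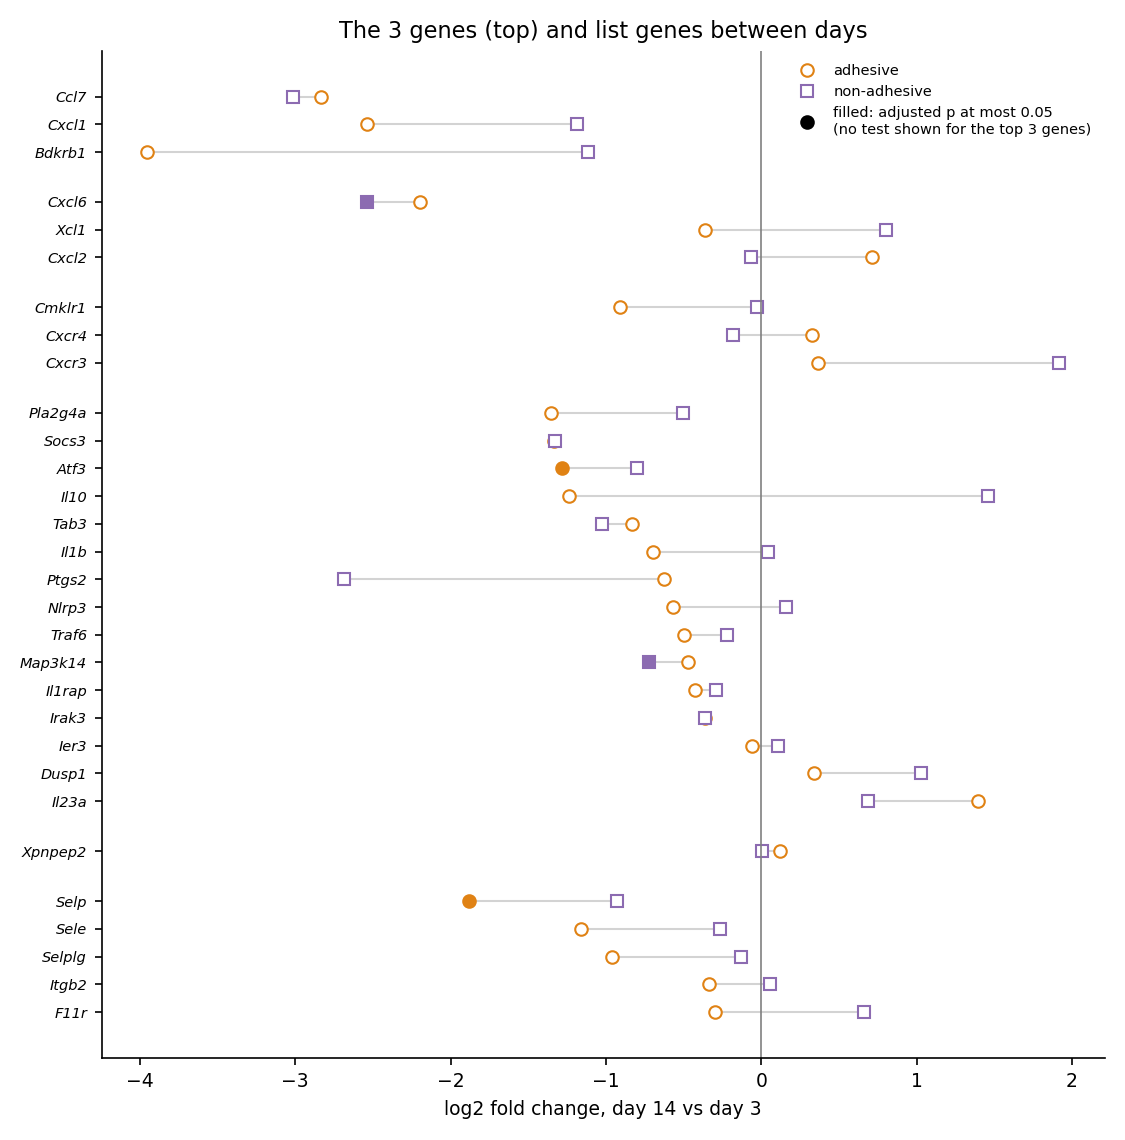
Log2 fold changes between days (day 14 against day 3) at the adhesive (circles) and non-adhesive (squares) implant for the 3 genes at the top and 27 of the 29 tested list genes below, grouped by list. Filled symbols are list genes at an adjusted p of 0.05 or less, 2 at the adhesive and 2 at the non-adhesive implant; no test is shown for the 3 genes at the top.

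Genes within 100000 bases of each member in the count files were set beside it, since chemokine genes lie in clusters. In the RefSeq table Ccl7 lies between Ccl2 and Ccl11, Cxcl1 between Cxcl2 and a gene before Cxcl3, and Bdkrb1 between Bdkrb2 and Atg2b. Near Ccl7 there were 3 genes, all tested, and none has a symbol in the sources used here. Of these, 2 fell at the adhesive and 3 at the non-adhesive implant (edgeR, adjusted p of 0.05 or less), against 7.46% and 8.87% of all genes, and their median log2 fold changes were -2.51 and -2.43.

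The gene ENSRNOG00000007159, 9216 bases before Ccl7, nearly matched it in level. Its mean was 159 ± 61.3 CPM at the adhesive implant on day 3 and 28.0 ± 16.9 CPM on day 14 (SD, n = 4; log2 fold change -2.51, edgeR adjusted p = 0.030). The non-adhesive means were 121 ± 99.7 and 22.3 ± 12.6 CPM (SD, n = 4; log2 fold change -2.43, edgeR adjusted p = 0.030). The gene ENSRNOG00000029768, 51796 bases after Ccl7, fell from 38.7 ± 24.8 to 2.72 ± 2.56 CPM at the adhesive implant (SD, n = 4; log2 fold change -3.81, edgeR adjusted p = 0.012). With the non-adhesive implant it fell from 12.1 ± 10.7 to 2.05 ± 1.27 CPM (SD, n = 4; log2 fold change -2.53, edgeR adjusted p = 0.047). The third gene had log2 fold changes of -1.12 and -1.99 and passed at the non-adhesive implant only (edgeR adjusted p = 0.21 and 0.035). With each of the 16 libraries left out in turn, ENSRNOG00000029768 passed in 16 fits at the adhesive and 6 at the non-adhesive implant, and ENSRNOG00000007159 in 11 and 12. The highest adjusted p (edgeR) for ENSRNOG00000007159 was 0.086 at either implant, without adhesive replicate 2 or non-adhesive replicate 3 of day 3, and for ENSRNOG00000029768 0.13 at the non-adhesive implant without the latter. ENSRNOG00000007335, the third gene, passed in 12 of the 16 fits at the non-adhesive implant, with a highest adjusted p of 0.11 (edgeR) without the same library. Without non-adhesive replicate 3 of day 3, therefore, 0 of the 3 neighbours passed at the non-adhesive implant. Near Cxcl1 3 of 4 genes were tested, among them Cxcl2, and 0 passed between days at either implant. Near Bdkrb1 3 of 6 genes were tested and 0 passed, with Atg2b at 0.35 and 0.19.

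**Figure D5:**
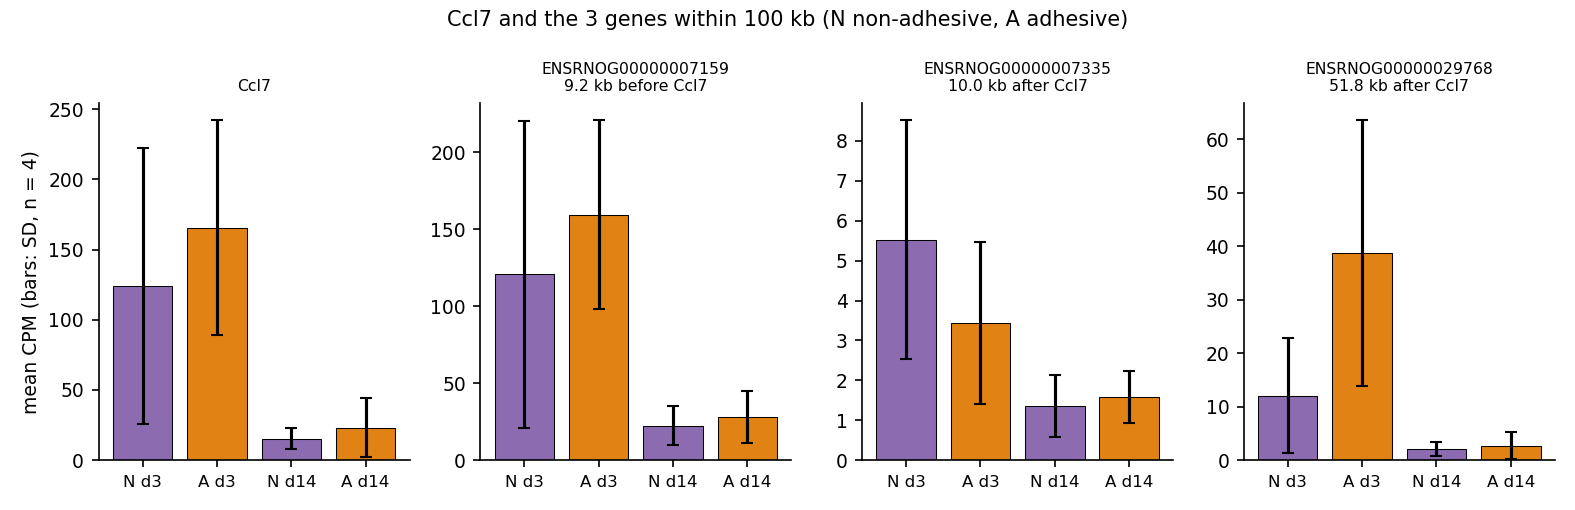
Mean CPM of Ccl7 and of the 3 genes within 100000 bases of it, by implant (N non-adhesive, A adhesive) and day, with bars of SD (n = 4) and linear axes from 0 that differ between panels. Each gene has lower means on day 14 than on day 3 at both implants.

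Likeness across libraries was measured by the Pearson r of deviations of log2 CPM from the group means, over 16 libraries and 1908 genes with a symbol and a mean of at least 1 CPM. The genes most like Ccl7 were LOC100910270 (r = 0.96), Adora2b (r = 0.91) and Enoph1 (r = 0.90). For Cxcl1 they were Asl (r = 0.87), Zcchc8 (r = 0.84) and Ccl7 itself (r = 0.83). For Bdkrb1 they were Ly86 (r = 0.96), Tlr7 (r = 0.92) and Pim1 (r = 0.91), while Ccl7 and Cxcl1 had an r of 0.63 and 0.64 with it. The group means did not have to follow. Enoph1 measured 16.3 ± 2.07 and 14.0 ± 1.30 CPM on days 3 and 14 at the adhesive implant, and 16.2 ± 2.54 and 17.4 ± 3.01 CPM at the non-adhesive implant (SD, n = 4). Adora2b, an adenosine receptor, had lower means on day 14 at both implants, as Ccl7 had. It went from 7.92 ± 3.51 to 2.52 ± 1.83 CPM at the adhesive and from 10.3 ± 5.24 to 5.39 ± 3.26 CPM at the non-adhesive implant (SD, n = 4). Ly86, a macrophage and monocyte marker, went from 16.1 ± 6.38 to 7.46 ± 2.80 CPM at the adhesive implant and stayed at 10.3 ± 2.59 and 10.4 ± 5.08 CPM at the non-adhesive implant (SD, n = 4). These correlations carry no p and are descriptions.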

How the data were processed

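The authors demultiplexed the bulk RNA-sequencing libraries with bcl2fastq 2.17, trimmed adaptors with Cutadapt, aligned with STAR and used featureCounts to obtain raw counts per Ensembl gene, which are the deposited values. Use of the strand in counting is not given in the sources used here. Symbols come from the study's supplementary sheets by identifier, for 2007 of 32552 genes, since only the first part of each sheet, in order of identifier, was at hand. The sheets' comparison columns, with fold changes and p values, were not used.

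The 3 genes, the gene lists and the tests were chosen with earlier results of these data known. Implants were compared in fits of 1 day, and days and implant effects in a fit of all 16 libraries. The test was edgeR's quasi-likelihood test with robust estimates (version 4.0.16, R 4.3.3), after filterByExpr and TMM scaling, with Benjamini-Hochberg adjustment. CPM were TMM-scaled over all libraries, log2 CPM used a prior count of 2, and TPM used the files' gene lengths. The 3 genes were part of each fit, and no p or call of theirs is reported. Named list genes were those with the lowest adjusted p at or under 0.05, up to 4 per list of chemokines, receptors and kinin genes and 3 per other list. Cxcl2, Il1b and genes next to the 3 genes were named outside this rule, after values were seen. Of the list genes that passed, 2 are counted but not reported here. Alternatives were DESeq2 1.42.0, its size factors in edgeR, no filter, no fold limit, a replicate block, a single fit and leaving out each library. For the 3 genes limma-voom (limma 3.58.1) and the single fit, and for list and neighbouring genes all alternatives, were added after seeing the data. The fits were tested on simulated data with known changes. Replicates differed by more than counting noise, so each library counts as 1. Promoters were read from RefSeq with Python 3.11, and figures drawn with matplotlib 3.10.9.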

Additional observations from a re-analysis of the deposited data

Results flagged for a closer look

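Ccl7 in adhesive replicate 2 of day 14 measured 54.3 CPM, far from the other 3 libraries of its group, which measured 10.6 to 14.4 CPM. On the linear CPM scale the gap to the nearest library was 0.914 of the group's range. This lay above Dixon's critical value at the 95% level for 4 libraries, used here only as a limit for flagging. On log2 CPM the library measured 5.76 against 3.43 to 3.86 in its group, and the gap was a smaller share of the range. The flag depends on the scale and is no test of the gene. This library was the only one flagged among 12 groups of 4 that were checked, 4 for each of the 3 genes. Chance flags about 1 in 20 groups if values are normally spread. Cxcl1 and Bdkrb1 measured 1.67 and 0.303 CPM in the same library, within the range of the other day-14 adhesive libraries or next to it. Other values stood out there too: Cxcl2 at 12.4 CPM against 1.08 to 2.27 CPM, Il1b at 20.7 CPM against 1.41 to 3.37 CPM and the fibroblast sum at 11764 CPM against 2028 to 4500 CPM.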

How the results depend on the processing

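For the 3 genes, the alternatives gave 265 log2 fold changes, and the sign was kept in 254. All 265 moved by less than 1 SD between libraries. Most alternatives left out 1 library of 4, which can hardly move a mean that far, so this count says little about stability. The sign changed for Ccl7 on day 14 between implants (main value 0.60, SE 0.60) and in the difference of implant effects (0.18, SE 0.94). It also changed for Bdkrb1 (0.45, SE 0.48) and Cxcl1 (0.23, SE 0.65) on day 3 between implants. Leaving out 1 library gave -3.69 to -2.53 for Ccl7, -2.74 to -2.17 for Cxcl1 and -4.29 to -3.53 for Bdkrb1 between days at the adhesive implant. At the non-adhesive implant the ranges were -3.35 to -2.57, -1.96 to -0.74 and -1.32 to -0.88. Between implants they were 0.08 to 0.91, -0.17 to 0.75 and -0.01 to 0.73 on day 3, and -0.25 to 0.86, -1.38 to -0.33 and -2.71 to -2.05 on day 14, and for the difference of implant effects -0.67 to 0.55, -1.84 to -0.58 and -3.17 to -2.35. Bdkrb1 passed the day-14 filter in only 5 of those fits and in no other alternative but the single fit, so the rest were not run for it. In the 5 fits it passed only through non-adhesive libraries with 17 to 27 reads, as the adhesive libraries held 0 to 4. Its day-14 range thus depends on the high group and is no support for the difference. The r of Ccl7 and Cxcl1 was 0.87 without the 2 farthest libraries on day 3, and on day 14 0.74 by ranks and 0.80 without them.

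Counts of called genes depended on the method. DESeq2 called 69 genes on day 3 (edgeR 0), 474 on day 14 (edgeR 36) and 25 for the difference of implant effects (edgeR 1). A single fit of all libraries called 216 on day 14. With no fold limit, 2174 genes were called between days at the adhesive (1186 with it) and 2561 at the non-adhesive implant (1325 with it). Leaving out 1 library gave 0 on day 3, 1 to 1151 on day 14 (1151 without non-adhesive replicate 4), 462 to 1570 and 744 to 1740 between days, and 0 to 3 for the difference. Of the list genes, 0 to 5 fell at the adhesive and 1 to 3 at the non-adhesive implant when 1 library was left out, 1 and 1 by limma-voom, and 1 at the non-adhesive implant with no filter. For genes named without a call, leaving out 1 library gave -0.62 to 1.12 for Cxcl2 at the adhesive and -0.90 to 0.57 at the non-adhesive implant between days, and -0.43 to 0.69 for Il1b at the non-adhesive implant, which was -0.055 with no filter and -0.23 with the replicate block. Cxcl6 at the adhesive implant passed by DESeq2 (adjusted p = 0.041). The causes were not tested.

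Whether the replicate numbers pair libraries is not given in the sources used here, and the main fits used no pairing. The correlations below include pairs across days and cannot decide it. Deviations of same-numbered libraries correlated at -0.62 to 0.48 over 24 pairs, and 9 exceeded 0.1. In 7 of 24 the best match was the same number. With the number as a block, edgeR called 0 genes on day 14 between implants, 0 for the difference of implant effects and 1 list gene at each implant between days.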
